A study of Mus musculus with 10 samples.

Results

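NRF2, the transcription factor encoded by Nfe2l2, and 9 genes that are commonly read as its antioxidant and NADPH-producing targets were examined in first lower molars treated with insulin-like growth factor 1 (IGF1). The 10 genes were chosen by name, with earlier results of these data known: Nfe2l2, Hmox1, Nqo1, Gclc, Gclm, Txnrd1, Srxn1, Prdx1, G6pdx and Pgd. All 10 were found among the 18381 genes of the count table, and all 10 passed the filter on low counts together with 14504 genes in total. With IGF1, Prdx1 rose in all 5 embryos by 1.29-fold and was the single member past the threshold, where 11.5% of all genes were called. Its call was lost without the pairing by embryo (adjusted p = 0.0733 in edgeR's quasi-likelihood test). Pgd, G6pdx and Gclc were also higher in all 5 embryos, by 1.25-, 1.21- and 1.20-fold, but none of these passed after adjustment. Of all genes tested, 13.0% were higher in all 5 embryos. Hmox1, Nqo1, Gclm, Txnrd1 and Srxn1 differed in opposite directions between embryos, and Nfe2l2 itself was slightly lower in each of them without passing the test.

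The molars came from wild type C57BL/6JOlaHsd mouse embryos at embryonic day 14 (E14) and were kept for 6 h in hanging drops, a culture in which the explant sits in a suspended drop of medium. Of the molars of each embryo, one received 750 ng/ml of mouse recombinant IGF1 and its partner only the PBS and BSA in which the protein was dissolved. With 5 embryos (1, 2, 3, 4 and 6) this made 5 IGF1 and 5 control samples, paired by embryo. Each tooth was a separate RNA sequencing library made from the whole explant, and the replicates are therefore separate embryos. A single dose and a single time were used, and RNA levels say nothing about the amount or activity of the NRF2 protein.

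Total counts ran from 2845773 to 8403151 in control samples and from 3456634 to 8763113 in IGF1 samples, with the lowest total of each group in embryo 1. Markers of both dental tissues were detected: the summed level of 10 epithelial markers lay between 2136 and 3337 CPM (read counts scaled to the normalized library total) in controls and between 2450 and 3260 CPM with IGF1, and that of 10 mesenchymal markers between 5932 and 7542 CPM and between 5643 and 7907 CPM. Of all genes tested, 975 were higher and 691 lower with IGF1 at an adjusted p under 0.05, which is 11.5% of them. This total of 1666 was 887 (6.12%) without the pairing by embryo, 986 (6.8%) without embryo 4 and 994 (6.82%) without embryo 6. As in all bulk tissue, fewer cells of a type and less RNA per cell cannot be told apart in these values.

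NRF2 is held at low levels by KEAP1, an adaptor that presents it to a CUL3 ubiquitin ligase for destruction. When reactive cysteines of KEAP1 are modified by oxidants or electrophiles, NRF2 escapes, enters the nucleus, pairs with a small MAF protein and binds antioxidant response elements, short sequences near its target genes. The repressor BACH1 competes for the same elements. The targets make glutathione, keep thioredoxin reduced, detoxify quinones, break down heme and supply NADPH, which several of these reactions use. Because much of this control acts on the stability of the protein, the messenger RNA of Nfe2l2 is a poor guide to the activity of the pathway.

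The sequence that NRF2 recognises is shown first. Promoter windows of 250 bases before to 50 bases after the gene start, from the RefSeq annotation of GRCm38.p6, matched 8 of the 10 genes by symbol, Hmox1 and Gclc being the others. The core of the antioxidant response element, TGACNNNGC, was searched on both strands. It was found in a window of 7 of the 8 genes, against 14.0% of all 27025 genes with a window. The windows of Nfe2l2, Gclm, G6pdx and Prdx1, and 1 of the 3 windows of Txnrd1, had their match before the start. In Srxn1 and in 1 of the 2 windows of Pgd the match lay after the start, and in Nqo1 these letters were not in the window. The stretches below are written 5′ to 3′ along the strand of the gene, with the core in capitals. The core lies on the strand of the gene in Nfe2l2 and on the opposite strand in the others, where it is printed as its reverse complement.
Nfe2l2, GRCm38.p6, chr2:75704855-75704913, minus strand: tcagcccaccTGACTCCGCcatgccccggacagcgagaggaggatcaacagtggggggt
Gclm, GRCm38.p6, chr3:122245383-122245471, plus strand: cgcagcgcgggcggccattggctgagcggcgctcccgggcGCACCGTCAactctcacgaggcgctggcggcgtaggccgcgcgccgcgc
Txnrd1, GRCm38.p6, chr10:82859074-82859162, plus strand: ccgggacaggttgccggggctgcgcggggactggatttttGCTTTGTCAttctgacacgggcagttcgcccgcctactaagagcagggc
G6pdx, GRCm38.p6, chrX:74428889-74428977, minus strand: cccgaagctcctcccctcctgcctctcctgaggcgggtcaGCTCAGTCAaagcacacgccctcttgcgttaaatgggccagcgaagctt
Prdx1, GRCm38.p6, chr4:116685426-116685514, plus strand: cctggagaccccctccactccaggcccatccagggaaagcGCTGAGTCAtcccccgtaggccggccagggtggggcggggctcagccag

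The match in Prdx1 begins 133 bases before the start and, read on its own strand, is TGACTCAGC, which also holds the AP-1 motif TGACTCA. AP-1 motifs overlap the antioxidant element in this way, and TGACTCA was found in the windows of 2 of the 8 genes and of 5.95% of all genes with a window. With an A required after the core, 2 of the 8 genes had a match, against 3.45% of all genes. A match describes the letters only, and no binding was measured here.

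Levels differed widely between the 10 genes in control teeth. Per kilobase of exon, Prdx1 was the highest, at 66.4 ± 8.84 CPM per kb (SD, n = 5), followed by Nfe2l2 at 20.4 ± 0.74 and Txnrd1 at 15.6 ± 1.77 CPM per kb. The ranges of these 3 genes did not overlap. Below them came G6pdx at 14.0, Hmox1 at 11.2, Pgd at 10.3, Gclc at 8.32, Nqo1 at 8.19, Srxn1 at 6.79 and Gclm at 3.92 CPM per kb, and from Txnrd1 downwards each gene overlapped the next in its range over the 5 control teeth. Among all genes tested, Prdx1 stood at the 96.9th percentile and Gclm at the 32.2nd. All values below are CPM after TMM normalization, without division by length, and are compared only within a gene.

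**Figure D1:**
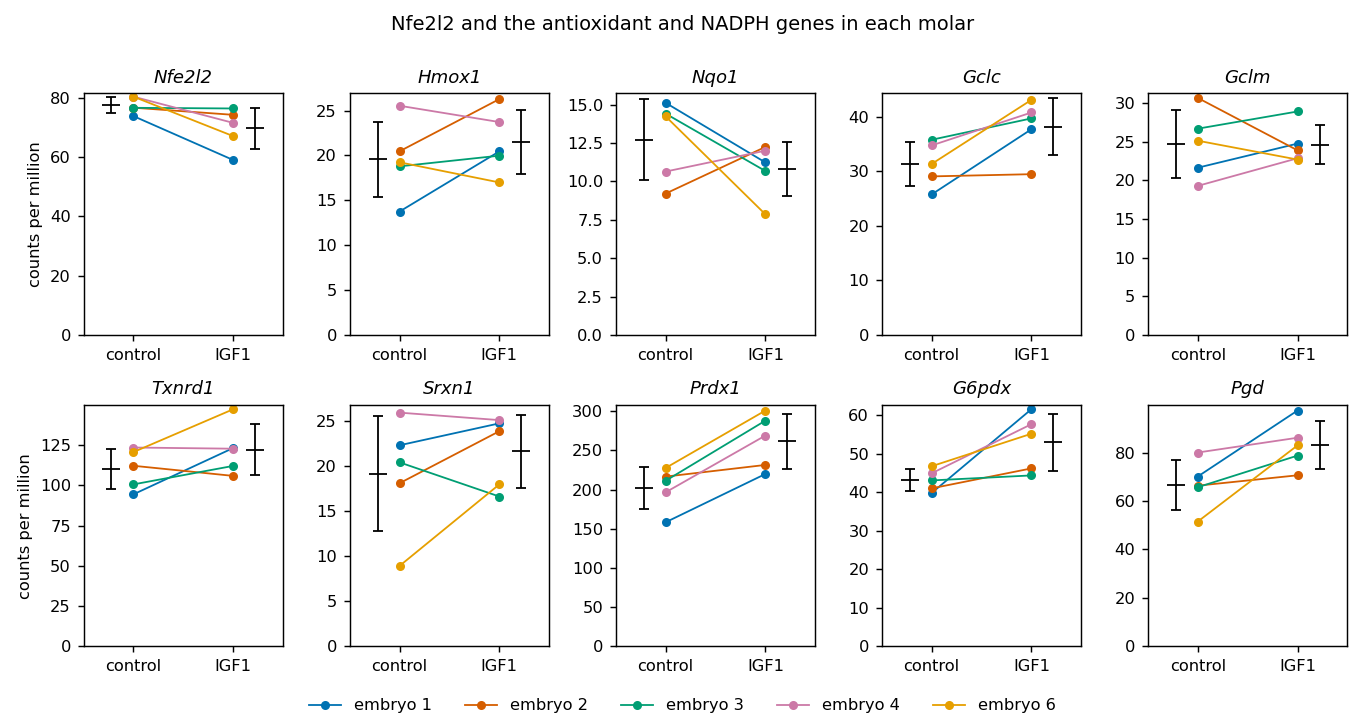
Normalized read counts in CPM (linear axes from 0) of Nfe2l2 and 9 antioxidant and NADPH genes in control and IGF1 molars, with a line joining the teeth of each embryo and black bars for the mean and SD of each group (n = 5). Lines for Prdx1, Pgd, G6pdx and Gclc all slope upwards, those of Nfe2l2 all slope downwards or lie nearly flat, and the groups overlap in every panel.

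Nfe2l2 (ENSMUSG00000015839, GRCm38 chr2:75675513-75704641, minus strand) encodes NRF2. Its level was 73.9, 76.7, 76.7, 80.4 and 80.4 CPM in the control teeth of embryos 1, 2, 3, 4 and 6, and 59.0, 74.3, 76.4, 71.6 and 67.1 CPM in their IGF1 teeth. The IGF1 tooth was the lower of the pair in all 5 embryos, by very little in embryo 3, and the groups overlapped. The log2 fold change was -0.15 ± 0.076 (SE) with a 95% interval from -0.32 to 0.013, and did not pass (adjusted p = 0.226). Of all genes tested, 11.2% were lower with IGF1 in all 5 embryos.

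Hmox1 and Nqo1 are the best known readouts of NRF2. Hmox1 (ENSMUSG00000005413, chr8:75093621-75100589, plus strand) encodes heme oxygenase 1, which opens the ring of heme and releases iron, carbon monoxide and biliverdin. It measured 13.7, 20.5, 18.8, 25.5 and 19.2 CPM in controls and 20.4, 26.3, 19.97, 23.7 and 17.0 CPM with IGF1, in the same order of embryos. Hmox1 was higher with IGF1 in embryos 1, 2 and 3 and lower in embryos 4 and 6. Its log2 fold change was 0.12 ± 0.13, with an interval from -0.16 to 0.40 (adjusted p = 0.597), and it was 0.045 without embryo 1 and 0.19 without embryo 6.

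Nqo1 (ENSMUSG00000003849, chr8:107388225-107403206, minus strand) encodes a quinone reductase that passes electrons in pairs from NAD(P)H to its substrate. Its control teeth measured 15.1, 9.20, 14.4, 10.6 and 14.2 CPM, and its IGF1 teeth 11.2, 12.2, 10.7, 12.0 and 7.85 CPM. The difference was upward in embryos 2 and 4 and downward in the other 3. The log2 fold change of Nqo1 was -0.22 ± 0.19, with an interval from -0.63 to 0.20 (adjusted p = 0.514). It was -0.061 without embryo 6 and -0.38 without embryo 2. Nqo1 rests on 39 to 122 counts in a library and Hmox1 on 40 to 221.

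Gclc and Gclm encode the catalytic and the modifier subunit of glutamate-cysteine ligase, the enzyme that makes the first and rate-limiting step of glutathione synthesis. Gclc (ENSMUSG00000032350, chr9:77754535-77794485, plus strand) measured 25.8, 29.1, 35.8, 34.8 and 31.4 CPM in controls and 37.7, 29.5, 39.7, 40.8 and 43.1 CPM with IGF1. Each IGF1 tooth was above its pair, in embryo 2 by only 0.02 on the log2 scale and in embryo 1 by 0.54. The log2 fold change of Gclc was 0.27 ± 0.10, with an interval from 0.052 to 0.48 and an unadjusted p of 0.0197 in edgeR's quasi-likelihood test (adjusted p = 0.105, from 0.0861 to 0.308 over the alternatives that left out at most 1 embryo).

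Gclm (ENSMUSG00000028124, chr3:122245557-122270732, plus strand) measured 21.6, 30.7, 26.7, 19.3 and 25.1 CPM in controls and 24.8, 23.9, 28.9, 22.9 and 22.7 CPM with IGF1. It was higher with IGF1 in 3 embryos and lower in embryos 2 and 6. The estimate for Gclm was -0.0032 ± 0.11 on the log2 scale, with an interval from -0.26 to 0.25 (adjusted p = 0.99). The sign of so small a value carries no information, and it turned positive, to 0.10, without embryo 2. Whether the subunits responded differently was not tested.

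Txnrd1, Srxn1 and Prdx1 act in the thioredoxin system, in which NADPH reduces thioredoxin through thioredoxin reductase and thioredoxin in turn restores peroxiredoxins that have reacted with hydrogen peroxide. Prdx1 (ENSMUSG00000028691, chr4:116685544-116700822, plus strand) encodes an abundant cytosolic peroxiredoxin. It measured 158, 217, 211, 197 and 228 CPM in the control teeth and 220.0, 232, 288, 269 and 301 CPM in the IGF1 teeth of embryos 1, 2, 3, 4 and 6. Every IGF1 tooth was higher than its pair, yet the ranges of the groups overlapped, since embryo 1 was low and embryo 6 high under both conditions.

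The rise of Prdx1 was 0.37 ± 0.073 on the log2 scale (95% interval 0.21 to 0.53), with an adjusted p of 0.00802. Within embryos it was 0.47, 0.10, 0.45, 0.45 and 0.40. Without the pairing by embryo the estimate no longer passed (adjusted p = 0.0733) and none of the 10 genes did, where 6.12% of all genes were called, and without each embryo in turn the log2 fold change stayed between 0.35 and 0.44. Over all alternatives its adjusted p ran from 0.00037 to 0.0733. Of the 31-base words in the Prdx1 transcripts, 15.4% also occur in other genes, among them Gm21399, so that part of its estimated count could be shared.

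Txnrd1 (ENSMUSG00000020250, chr10:82833951-82897712, plus strand), the cytosolic thioredoxin reductase, measured 94.5, 112, 101, 124 and 121 CPM in controls and 123, 106, 112, 123 and 147 CPM with IGF1. It was higher in embryos 1, 3 and 6, nearly level in embryo 4 and lower in embryo 2. Its log2 fold change was 0.14 ± 0.082, with an interval from -0.038 to 0.32 (adjusted p = 0.307), and was 0.088 without embryo 1.

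Srxn1 (ENSMUSG00000032802, chr2:152105516-152111376, plus strand) encodes sulfiredoxin, which repairs peroxiredoxins that were over-oxidized to the sulfinic acid. It measured 22.3, 18.1, 20.4, 25.96 and 8.94 CPM in controls and 24.8, 23.9, 16.6, 25.1 and 18.0 CPM with IGF1. The low control tooth of embryo 6 gave the largest difference within a pair, 0.99 on the log2 scale, while embryo 3 went the other way by -0.29. The estimate over all embryos was 0.22 ± 0.17, with an interval from -0.15 to 0.58 (adjusted p = 0.453). It was 0.04 without embryo 6 and 0.35 without embryo 3.

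G6pdx and Pgd encode glucose-6-phosphate dehydrogenase and 6-phosphogluconate dehydrogenase, the enzymes of the oxidative branch of the pentose phosphate pathway that each release NADPH. Pgd (ENSMUSG00000028961, chr4:149149991-149166771, minus strand) measured 70.1, 66.3, 65.7, 80.0 and 51.5 CPM in controls and 97.3, 70.6, 78.7, 86.1 and 82.9 CPM with IGF1. The IGF1 tooth was higher in all 5 embryos, most in embryo 6 (0.68) and least in embryo 2 (0.09). The log2 fold change of Pgd was 0.32 ± 0.10, with an interval from 0.11 to 0.53, and lay just outside the threshold (adjusted p = 0.0565). It passed when genes were required to have at least 10 counts in every sample (adjusted p = 0.0394), where 8.22% of all genes were called higher and 14.4% in either direction. Over all alternatives its adjusted p ran from 0.0394 to 0.199.

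G6pdx (ENSMUSG00000031400, chrX:74409483-74429194, minus strand) measured 39.9, 41.1, 43.1, 45.0 and 46.8 CPM in controls and 61.6, 46.2, 44.4, 57.7 and 55.2 CPM with IGF1. Again all 5 IGF1 teeth were above their pair, by 0.63 in embryo 1 and by 0.043 in embryo 3. The log2 fold change was 0.27 ± 0.092, with an interval from 0.072 to 0.48 (adjusted p = 0.0812), and it passed without embryo 3 (adjusted p = 0.0497), where 6.36% of all genes were called higher and 11.0% in either direction. Among alternatives that left out at most 1 embryo, its adjusted p lay between 0.0497 and 0.224. G6pdx shares 23.6% of its 31-base words with other genes, 12.6% with the intronless copy G6pd2, and overlaps Ikbkg on the opposite strand.

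**Figure D2:**
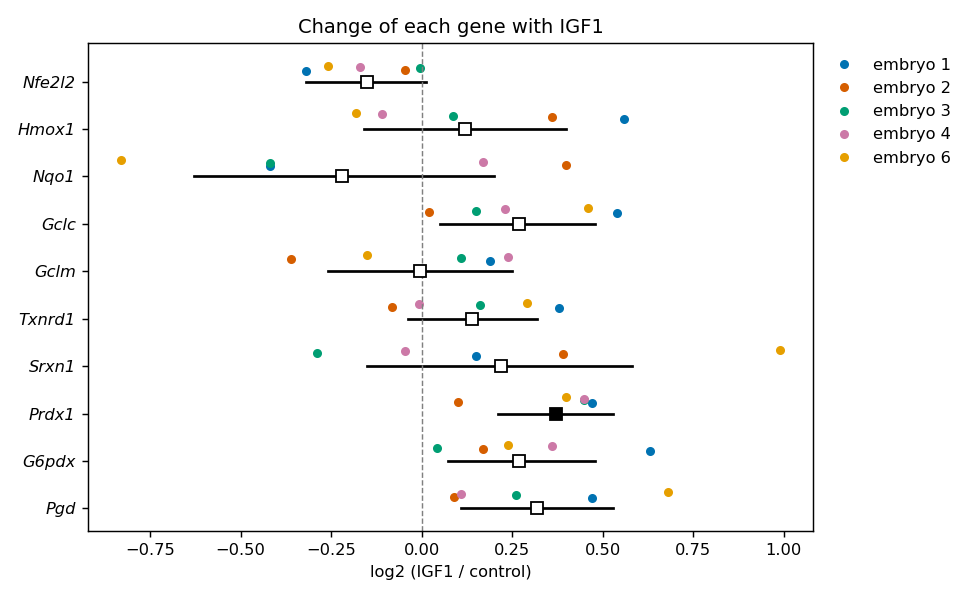
Log2 ratio of IGF1 to control for each of the 10 genes: squares are the estimates of the paired fit with 95% intervals (filled where the adjusted p is under 0.05), and dots are the differences within each of the 5 embryos. The interval of Prdx1 runs from 0.21 to 0.53 and its square is the single filled one, while the dots of Nqo1 and Srxn1 are the most widely spread.

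Counted together, 1 of the 10 genes was called, and it was higher, while 6.72% of all genes tested were called higher and 4.76% lower, or 11.5% in either direction. At an unadjusted p under 0.05 there were 4 (Prdx1, Pgd, G6pdx and Gclc, all higher), where 14.3% of all genes were higher and 26.5% differed in either direction. These same 4 genes were higher with IGF1 in all 5 embryos, against 13.0% of all genes. The groups overlapped for every one of the 10, while 7.25% of all genes had groups that did not overlap. The median log2 fold change of the 10 was 0.18, beside -0.0038 over all genes.

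The differences also varied by embryo. The median over the 10 genes was 0.43 in embryo 1, 0.26 in embryo 6, 0.14 in embryo 4, 0.10 in embryo 3 and 0.093 in embryo 2. Embryos 2 and 3, which had the smallest medians, had the largest change of a list of hypoxia response genes, with a median of 2.37 in each against 0.62, 0.94 and 0.82 in embryos 1, 4 and 6. In all 5 embryos together, 14 of the 15 hypoxia response genes tested were called higher with IGF1, beside 6.72% of all genes. Among the 13 that reached the level of the filter on low counts in every tooth, 12 were called higher. This list was chosen with earlier results of these data known, so its share is a description. Bnip3 was higher by 2.20 on the log2 scale. The part of this response in the values of the antioxidant genes was not tested.

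Over the 10 samples, the genes whose log2 CPM was most like that of Prdx1 were Cse1l, with a Pearson r of 0.969, Hspa14 (0.960) and Idh3a (0.960). For Pgd they were Atp6ap1 (0.946), Ifi35 (0.931) and Krt13 (0.920). These correlations describe 5 embryos under 2 conditions, share embryo and library, and were picked as the highest among all genes tested.

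The rest of the pathway was followed in 7 lists of related genes. All lists, also those of response genes, were chosen with earlier results of these data known. Their shares of calls beside all genes are therefore a description. In the counts of these lists, higher and lower mean called at an adjusted p under 0.05. Of the 123 listed genes tested outside the 10, 20 were higher and 8 were lower with IGF1, or 22.8%, beside 11.5% of all genes. Without embryo 6 the count fell from 28 to 17, where 6.82% of all genes were called. NADPH supply held 10 of the 20 that rose. Among these 20, Chac1 and Aldh1l1 passed the filter on low counts through the 5 IGF1 teeth alone, so their calls are a description. With at least 10 counts in every sample, which leaves both out, 32 listed genes were called, where 14.4% of all genes were. The lists are described below in the order regulators, glutathione, thioredoxin, NADPH, detoxification, and heme and iron.

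**Figure D3:**
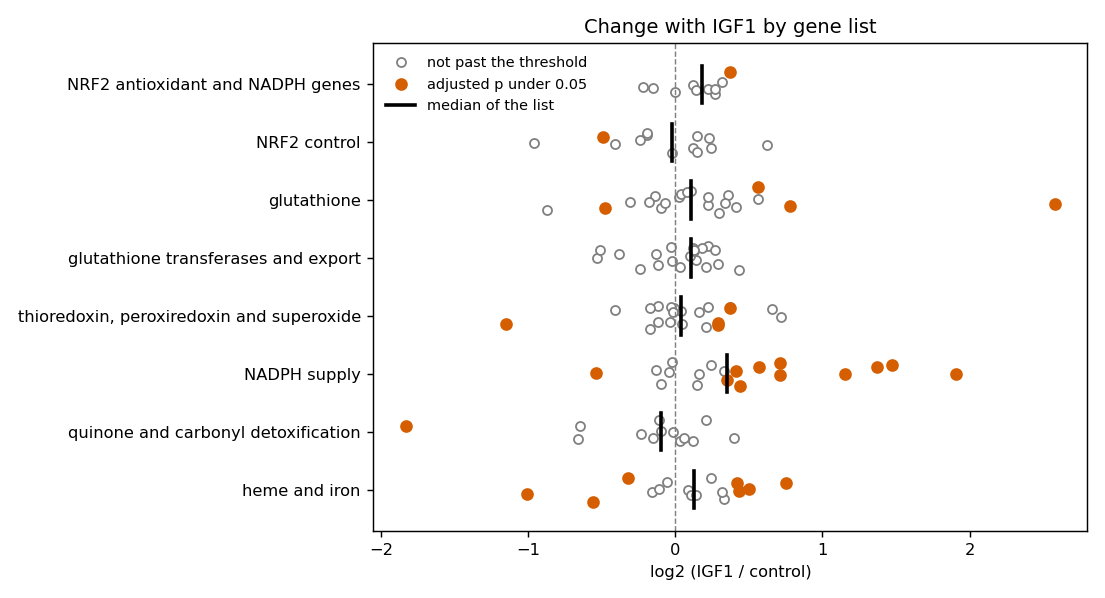
Log2 ratio of IGF1 to control for each tested gene of the 10-gene set and of 7 lists of related genes, filled where the adjusted p is under 0.05, with a black bar at the median of each list. The NADPH supply list has its median at 0.35 and 10 filled points to the right of 0, whereas the NRF2 control, glutathione transferase and detoxification lists have none there.

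Among 13 regulators of NRF2, Bach2 was the single gene called, or 7.69%, beside 11.5% of all genes. At an unadjusted p under 0.05 in edgeR there were 7 of the 13, where 26.5% of all genes were. The groups did not overlap for 3 of the 13, beside 7.25% of all genes. Bach2 encodes a repressor related to BACH1 and fell from 53.1 ± 3.95 to 37.7 ± 1.87 CPM (SD, n = 5), a log2 fold change of -0.49 ± 0.079 (adjusted p = 0.00285), with no overlap between groups. Keap1 was 0.24 ± 0.084 higher (adjusted p = 0.0904) and Bach1 was -0.19 ± 0.066 (adjusted p = 0.0888), neither past the threshold. Bach1 was lower in all 5 embryos, and its groups did not overlap. Nfe2l1, which encodes a relative of NRF2, was at 0.23 (adjusted p = 0.059). Nfe2l3, another relative, was at -0.96 ± 0.30 (adjusted p = 0.0647), lower in all 5 embryos and without overlap of the groups, on 9 to 63 counts a library, and it passed without embryo 3 (-1.24, adjusted p = 0.0304, range 0.0304 to 0.214 over single embryos left out). Sqstm1, whose product p62 can take KEAP1 away from NRF2, was at -0.24 (adjusted p = 0.059). With at least 10 counts in every sample, Nfe2l1 and Sqstm1 passed (adjusted p = 0.0499 and 0.0434), where 14.4% of all genes did. Keap1, Bach1, Nfe2l1, Nfe2l3 and Sqstm1 were named after their values were seen, for their role. The median of the list was -0.021.

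Of 21 glutathione genes, 3 were higher and 1 lower, or 19.0%, beside 11.5% of all genes. Chac1, which encodes an enzyme that cleaves glutathione, rose from 0.872 ± 0.325 to 5.97 ± 5.87 CPM (log2 fold change 2.58 ± 0.34, adjusted p = 0.000902), on 3 to 137 counts a library. It was higher in all 5 embryos, at 16.3 CPM in embryo 2. Chac1 reached the level that the filter on low counts asks for in 5 IGF1 teeth and 0 control teeth, so a gene kept in this way had to differ and its call is a description. Without it, 2 of 20 glutathione genes were higher. Chac1 also stands in a list of ATF4 response genes, named for a factor of the amino acid and integrated stress response. Of 9 genes of that list tested, Chac1 included, 5 were higher with IGF1 (4 of 8 without Chac1), beside 6.72% of all genes, and the part of this response in the rise of Chac1 was not tested. Ggt7 (0.78 ± 0.23, adjusted p = 0.0493), of the gamma-glutamyltransferase family, and Cth (0.56 ± 0.16, adjusted p = 0.0415), the cystathionine gamma-lyase that yields cysteine, were also higher. Oplah, the oxoprolinase of the glutathione cycle, was lower (-0.48 ± 0.14, adjusted p = 0.0499). The calls of Ggt7 and Cth were lost without any single embryo, and that of Oplah without any but embryo 1 and without the pairing by embryo (adjusted p = 0.0961). Gsr, the glutathione reductase that uses NADPH, was at 0.34 (adjusted p = 0.0846) and at 0.20 without embryo 6, and Slc7a11, the cystine carrier and a known NRF2 and ATF4 target, at 0.22 (adjusted p = 0.337) and at 0.11 without embryo 3.

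None of the 20 glutathione transferase and export genes tested passed in edgeR, DESeq2 or limma-voom, where 11.5%, 9.34% and 12.0% of all genes did. Of the 20, 15 reached the level of the filter on low counts in every tooth. At an unadjusted p under 0.05 in edgeR there were 4 of the 20, where 26.5% of all genes were. The list ran from -0.53 to 0.43 on the log2 scale.

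In the list of thioredoxin, peroxiredoxin and superoxide genes, 3 of 21 were higher and 1 was lower, or 19.0%, beside 11.5% of all genes. Txnip encodes the thioredoxin-interacting protein, which binds reduced thioredoxin and limits glucose uptake, and its RNA is known to follow glucose. It measured 230.2, 213, 166, 147 and 161 CPM in controls and 90.1, 78.8, 88.7, 80.0 and 69.4 CPM with IGF1. All IGF1 teeth lay below all control teeth. Its log2 fold change was -1.15 ± 0.094, or 0.45-fold (adjusted p = 4.02e-05). Of its 31-base words 17.4% are shared, with Gm15441 on the opposite strand. Txn1, the cytosolic thioredoxin, was higher by 0.29 ± 0.077 (adjusted p = 0.032), its mitochondrial counterpart Txn2 by 0.37 ± 0.076 (adjusted p = 0.0109) and Sod2, the mitochondrial superoxide dismutase, by 0.29 ± 0.083 (adjusted p = 0.0429).

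All 3 were higher in all 5 embryos. The calls of Txn1 and Sod2 were lost without the pairing by embryo (adjusted p = 0.0572 and 0.0963) and without any single embryo but embryo 3 for Txn1 (up to adjusted p = 0.133) and embryo 2 for Sod2 (up to adjusted p = 0.152), and that of Txn2 without embryo 4 (adjusted p = 0.0553). Sod2 shares 26.7% of its 31-base words with other genes.

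Of the 7 lists, NADPH supply had the largest share of calls: 10 of its 19 genes were higher with IGF1 (52.6%, beside 6.72% of all genes) and 1 was lower. This list too was chosen with earlier results known, so its share is a description. Among the 10 are genes that make no NADPH themselves, such as Me2 and Mthfd1l. The 3 of the 10 with the largest estimates belong to folate-bound one-carbon metabolism, which makes NADPH in the cytosol and mitochondria. Aldh1l1 was at 1.91 ± 0.37 (adjusted p = 0.007) on 2 to 17 counts a library. Like Chac1, it passed the filter through the 5 IGF1 teeth alone, so its call is a description too, and without it 9 of 18 NADPH supply genes were higher. Mthfd2, which encodes a mitochondrial methylene-tetrahydrofolate dehydrogenase, rose from 19.5 ± 2.55 to 57.5 ± 31.2 CPM (1.47 ± 0.19, adjusted p = 0.000846). Aldh1l2, the mitochondrial formyl-tetrahydrofolate dehydrogenase, rose from 33.9 ± 3.20 to 91.5 ± 37.5 CPM (1.37 ± 0.15, adjusted p = 0.000257). In both, the IGF1 tooth of embryo 2 was far above the others, at 113 and 157 CPM, and the groups did not overlap. Mthfd2 and Aldh1l2 are known ATF4 targets.

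The other 7 that rose were chosen for mention after their values were seen. Tkt and Taldo1 encode transketolase and transaldolase, which join the pentose phosphate pathway back to glycolysis. Tkt measured 138, 123, 136, 153 and 144 CPM in controls and 229.5, 198, 181, 204 and 222 CPM with IGF1, with every IGF1 tooth above every control tooth. Its log2 fold change was 0.57 ± 0.073 (adjusted p = 0.000737), and that of Taldo1 was 0.41 ± 0.087 (adjusted p = 0.0118). The call of Taldo1 was lost without the pairing by embryo (adjusted p = 0.0572) and without embryo 6 (adjusted p = 0.0543), and 14.0% of its 31-base words occur in other genes.

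Me1 and Idh1 encode the cytosolic malic enzyme and the cytosolic isocitrate dehydrogenase, which both make NADPH. Me1 measured 24.4, 30.1, 26.9, 29.8 and 21.8 CPM in controls and 37.7, 53.6, 50.7, 42.9 and 33.3 CPM with IGF1. Idh1 measured 66.3, 79.5, 72.4, 71.2 and 67.9 CPM in controls and 113, 101, 140, 130 and 103 CPM with IGF1. In neither gene did the groups overlap. The log2 fold changes were 0.71 ± 0.092 for Me1 (adjusted p = 0.000806) and 0.71 ± 0.092 for Idh1 (adjusted p = 0.000861). Me1 shares 36.9% of its 31-base words with other genes, mostly Gm7049. All 10 genes of a list for sterol and fatty acid synthesis, whose enzymes use NADPH, were higher with IGF1 as well, beside 6.72% of all genes. The median of that list was 1.42 on the log2 scale.

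Me2, the mitochondrial malic enzyme that works with NAD, was higher by 0.44 ± 0.094 (adjusted p = 0.0129), Mthfd1 by 0.35 ± 0.095 (adjusted p = 0.035) and Mthfd1l by 1.15 ± 0.16 (adjusted p = 0.00107). Mthfd1l encodes a mitochondrial synthetase of the folate cycle that itself makes no NADPH. The calls of Me2 and Mthfd1 were lost without the pairing by embryo (adjusted p = 0.202 and 0.173), that of Me2 also without embryo 6 (0.0542), and that of Mthfd1 without any single embryo but embryo 3 (up to 0.14). Me3, a mitochondrial malic enzyme that works with NADP, fell from 17.5 ± 2.65 to 12.2 ± 3.24 CPM (-0.54 ± 0.12, adjusted p = 0.0158), a call lost without the pairing (0.103) and without embryo 2 (0.0521). Pgls, which stands between G6pdx and Pgd in the pathway, was at -0.022 ± 0.11 (adjusted p = 0.929). Pgls turned positive without embryo 3, at 0.042. Idh2, the mitochondrial isocitrate dehydrogenase, was at 0.15 (adjusted p = 0.186) and Nadk, the kinase that makes NADP, at 0.24 (adjusted p = 0.066). Nadk passed without embryo 3 (adjusted p = 0.0413, but 0.213 without embryo 6), where 11.0% of all genes were called.

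**Figure D4:**
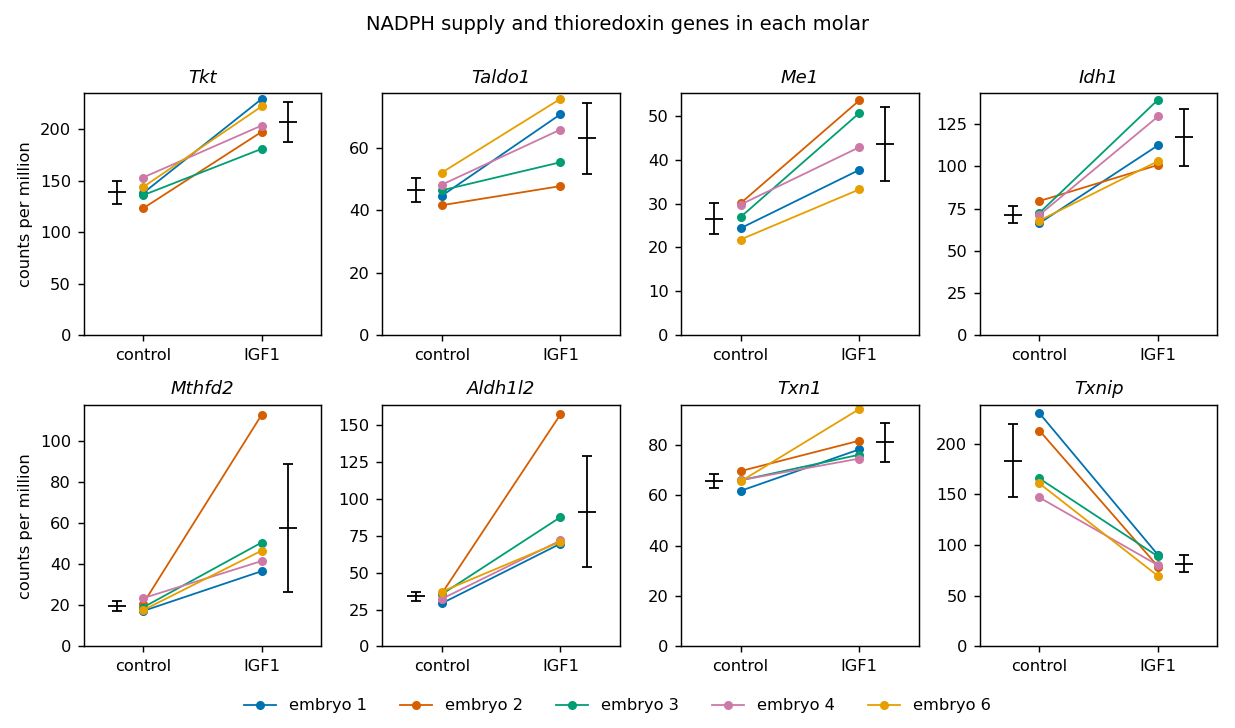
Normalized read counts in CPM (linear axes from 0) of 6 NADPH supply genes, Txn1 and Txnip in control and IGF1 molars, with a line joining the teeth of each embryo and black bars for the mean and SD of each group (n = 5). Tkt, Me1 and Idh1 rise in every embryo, Mthfd2 and Aldh1l2 rise most in embryo 2 (to 113 and 157 CPM), and Txnip falls in all 5.

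Among the 13 quinone and carbonyl detoxification genes tested, none was higher and Aldh3a1 was lower, or 7.69%, beside 11.5% of all genes. Aldh3a1, an aldehyde dehydrogenase that reached the level of the filter in 4 control teeth and 1 IGF1 tooth, fell by 1.83 ± 0.47 on the log2 scale (adjusted p = 0.0271) on 2 to 19 counts a library, was lower in 4 of 5 embryos, and lost its call without any single embryo but embryo 1 (up to adjusted p = 0.101). The median of the list was -0.094.

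Of 16 heme and iron genes, 4 were higher and 3 lower, or 43.8%, beside 11.5% of all genes. Tfrc, the transferrin receptor that brings iron into cells, rose from 103 ± 11.2 to 176 ± 49.1 CPM (0.75 ± 0.13, adjusted p = 0.00357). Flvcr1, long described as a heme exporter, was higher by 0.43 ± 0.11 (adjusted p = 0.0276) and Cpox, an enzyme of heme synthesis, by 0.42 ± 0.10 (adjusted p = 0.0171). Cpox lies outside the rule for naming genes and was chosen after its values were seen.

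Slc40a1, the iron exporter ferroportin, was at 0.496-fold of the control (-1.01 ± 0.17, adjusted p = 0.00383), with 64.2, 43.0, 39.8, 38.6 and 44.2 CPM in controls and 35.1, 12.6, 16.2, 31.9 and 23.6 CPM with IGF1. Its decrease was deepest in embryos 2 and 3. Urod, an enzyme of heme synthesis, was at -0.56 ± 0.10 (adjusted p = 0.00419) and Fth1, the heavy chain of the iron store ferritin, at -0.32 ± 0.087 (adjusted p = 0.0395). The call of Fth1 was lost without the pairing (adjusted p = 0.196) and without any single embryo (up to 0.11). Calls were also lost for Flvcr1 without embryos 1, 2, 3 or 6 (up to 0.0955), and for Cpox without the pairing (0.0929) and without embryos 2 or 4 (up to 0.0647).

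Markers of other cell types were read beside these genes. Of 8 erythroid markers tested, 6 were lower and none higher with IGF1, beside 4.76% of all genes called lower, and their summed level was 866 to 1449 CPM in controls and 615 to 1124 CPM with IGF1, lower in all 5 embryos. Without the pairing by embryo, 1 erythroid marker was called and 6 were at an unadjusted p under 0.05. The summed level of 11 macrophage markers was 73.5 to 103 CPM in controls and 68.7 to 96.8 CPM with IGF1, also lower in all 5 embryos, with 1 of 9 markers tested (Csf1r, 11.1% of the list beside 11.5% of all genes) past the threshold in edgeR and 0 without the pairing (1 at an unadjusted p under 0.05) or in DESeq2. The summed level of 6 endothelial markers was 331 to 378 CPM in controls and 263 to 344 CPM with IGF1, again lower in all 5 embryos, with 1 of 6 markers called in edgeR (16.7%) and 0 without the pairing (2 at an unadjusted p under 0.05). Of 5 glial markers, 2 were tested and none was called by edgeR (0 at an unadjusted p under 0.05), and their summed level was higher with IGF1 in 2 embryos. No marker of these lists was at 0 in all samples. The part of these cells in the values of Hmox1, Slc40a1, Urod and the other heme and iron genes was not tested.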

How the data were processed

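RNA was sequenced from 5 control and 5 IGF1 molars. The authors deposited a table of estimated counts by gene from Salmon 0.99.0, run after FastQC 0.11.8 and Trimmomatic 0.39 on GRCm38 per the labels' processing notes, which also name DESeq2. The deposited counts are whole numbers without normalization, and every gene has at least 10 counts in total. The use of strand and the transcript set are not given in the sources used here, so reads of copies and of overlapping genes may be divided between them. The paper given with the series describes other samples and was not used for the design.

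Gene symbols and coordinates came from GENCODE mouse M21, which holds 18287 of the 18381 genes. Counts were tested in R 4.3.3 with edgeR 4.0.16: TMM, filterByExpr, the quasi-likelihood test with embryo as a block and Benjamini-Hochberg adjustment over all 14504 genes, called at 0.05. The labels pair both teeth of an embryo; the correlation of their departures from the mean of each group was 0.319, 0.208, -0.0389, 0.170 and 0.313 (embryos 1, 2, 3, 4 and 6), with a median of -0.0463 between embryos. Replicates within a group differed beyond sampling noise (chi-square per degree of freedom 4.68 to 19.4). Alternatives used DESeq2 1.42.0 and limma 3.58.1, other filters, no block and each embryo left out. The procedure was tested on simulated data.

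The rule for naming genes took the 10 members and up to 3 rising and 3 falling called genes with the largest change in each list. It also took the 3 genes most like each of the 2 members with the smallest p. A result that falls under this rule is not reported here. Members and lists were chosen with earlier results of these data known. Shared sequence was measured as 31-base words of GENCODE transcripts.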

Additional observations from a re-analysis of the deposited data

Results flagged for a closer look

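None of the 20 groups of 5 teeth tested for the 10 antioxidant and NADPH genes held a tooth far from the others, where about 1 in 20 is found by chance. With the related genes named in the text, 96 groups were tested and 8 held such a tooth, against 4.8 by chance. The measure is the gap to the nearest tooth divided by the range of the group.

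The IGF1 tooth of embryo 2 was the highest for Chac1 (16.3 CPM against 1.71 to 4.90, gap 0.782), Mthfd2 (113 against 36.6 to 50.5 CPM, gap 0.817) and Aldh1l2 (157 against 69.7 to 87.7 CPM, gap 0.795). For Aldh1l1 the IGF1 tooth of embryo 1 stood apart, at 4.03 against 1.66 to 2.26 CPM (gap 0.749). Me3 was highest in embryo 6 in both groups, at 22.1 against 15.2 to 17.0 CPM in controls (gap 0.738) and 17.7 against 9.27 to 11.6 CPM with IGF1 (gap 0.725). The control tooth of embryo 1 was highest for Slc40a1, at 64.2 against 38.6 to 44.2 CPM (gap 0.78). For Idh2 the control tooth of embryo 2 was lowest, at 98.03 against 114 to 120.0 CPM (gap 0.736).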

How the results depend on the processing

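Without the replicate block, 887 genes were called in place of 1666, of which 885 were shared, and 0 of the 10 members in place of 1 (Prdx1 at adjusted p = 0.0733, 4 members at an unadjusted p under 0.05, as were 2845 of all 14504 genes). With at least 10 counts in every sample 2 members were called. Leaving out each embryo in turn, 986 to 1602 genes, 1 to 2 members and 17 to 24 genes of the related lists were called. The second member was G6pdx, without embryo 3. Without embryos 2 and 3, chosen after seeing the data for their hypoxia response, 4 members were called, where 10.2% of all genes were. These embryos also had the smallest median difference of the members, so a gain in calls was built into that choice and nothing is read from it. The motif with an A required after the core was found in the windows of 2 members in place of 7 for the core.

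Over 120 alternatives for the 10 members, the direction and side of the threshold held in 111, a call was lost in 1 and gained in 5. The sign turned in 3, all of Gclm: 0.10 without embryo 2, 0.031 without embryo 6 and 0.082 without embryos 2 and 3, within a range of -0.064 to 0.10 over single embryos left out. Pgls turned to 0.042 without embryo 3 (range -0.15 to 0.042 over single embryos left out) and to 0.10 without embryos 2 and 3, and Slc7a11 to -0.022 without embryos 2 and 3. Of the 28 called genes of the related lists, 14 kept their call under every alternative that gave a value, among them Txnip, Bach2, Tkt, Me1, Idh1, Mthfd2 and Aldh1l2. The 14 include Chac1 and Aldh1l1, which passed the filter on low counts through the IGF1 teeth alone, so their kept calls are a description. NADPH supply genes that rose numbered 7 to 11. The causes were not tested. DESeq2's Wald test lost the calls of Ggt7, Cth, Oplah, Txn1, Sod2, Me3 and Flvcr1 (adjusted p from 0.0516 to 0.162). Counts fell to 3 or fewer in a library for Chac1, Aldh1l1 and Aldh3a1.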
